A study of Mus musculus with 2 samples.

Results

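The homeobox genes described here are transcription factors that mark position along the body and within the head. They were taken by name: every probe set annotated to exactly 1 gene whose symbol is Hoxa, Hoxb, Hoxc or Hoxd, or Msx, Dlx, Alx, Prrx, Irx, Meis, Pbx, Lhx, Pax or the sine oculis name (as in Six2), followed by a number. This gave 79 genes read by 137 probe sets, out of 18193 genes read by 34945 probe sets. A probe set is a group of short probes against 1 transcript. The rule reads names and not measured values, but it was set with earlier results of these data known.

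The calvaria, or skull vault, of CD1 mice (an outbred stock) aged 7 days gave the primary osteoblasts, the cells that build bone. One culture was given 2 µM PP1, an inhibitor of Src-family tyrosine kinases, for 24 h and the other the vehicle DMSO for 24 h; both had been kept for 24 h in medium with albumin in place of serum. Each condition was read on 1 array, so no value has a replicate, no test between PP1 and DMSO was possible, and everything below describes these 2 arrays. How many animals gave the cells is not given in the sources used here. In whole cultures, fewer cells of a type and less RNA per cell cannot be told apart.

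Homeobox proteins bind DNA through the homeodomain. Pax1 and Pax9 have a paired domain and no homeodomain, and are counted among the homeobox genes here by family name only. The Hox genes lie in 4 clusters, and in the embryo the genes at one end (low numbers) are used from the hindbrain backwards while those at the other end (high numbers) are used in the trunk, limb and tail. The cranial neural crest that forms the frontal bone and the face is known for lacking Hox expression, and its skeleton relies on Msx, Dlx, Alx and Prrx genes, while Meis and Pbx proteins bind DNA together with Hox proteins.

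Upstream sequences are shown for 4 genes. Prrx1 and Msx2, both above background on each array, were the only genes among the 24 measured ones matched to RefSeq promoters to hold the palindrome TAATTA, the core recognised by many homeodomains, in the 250 bases before the start. Hoxd8 and Hoxd9 are next to each other in the Hoxd cluster, and the first was above background while the second was not. Each line runs 5′ to 3′ and ends at the base before the RefSeq start (GRCm38.p6). Prrx1 lies on the minus strand at chr1:163313651-163313900 and Msx2 on the minus strand at chr13:53472781-53473030. Hoxd8 lies on the plus strand at chr2:74704365-74704614 and Hoxd9 on the plus strand at chr2:74697513-74697762. Capitals mark every match, on either strand, to TAATTA, TGATNNAT (a joint Pbx and Hox motif), the CCAAT box, the GC box GGGCGG or the TATA box TATAAA, and no marked matches overlap except the 2 strands of a palindrome.
Prrx1: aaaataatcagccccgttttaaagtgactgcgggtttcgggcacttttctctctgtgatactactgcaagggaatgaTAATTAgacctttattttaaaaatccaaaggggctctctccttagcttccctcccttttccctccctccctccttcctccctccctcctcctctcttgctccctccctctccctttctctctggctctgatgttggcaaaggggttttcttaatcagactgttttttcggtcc
Msx2: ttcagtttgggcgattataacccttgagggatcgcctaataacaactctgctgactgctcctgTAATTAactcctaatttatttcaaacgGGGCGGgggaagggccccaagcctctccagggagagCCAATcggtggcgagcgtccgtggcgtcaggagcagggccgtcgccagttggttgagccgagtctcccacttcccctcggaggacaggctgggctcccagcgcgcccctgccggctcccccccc
Hoxd8: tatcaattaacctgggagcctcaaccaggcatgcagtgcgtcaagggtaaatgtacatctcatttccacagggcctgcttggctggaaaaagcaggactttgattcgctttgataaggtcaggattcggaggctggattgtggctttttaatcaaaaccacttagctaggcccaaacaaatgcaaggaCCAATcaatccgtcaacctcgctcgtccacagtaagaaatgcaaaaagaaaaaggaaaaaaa
Hoxd9: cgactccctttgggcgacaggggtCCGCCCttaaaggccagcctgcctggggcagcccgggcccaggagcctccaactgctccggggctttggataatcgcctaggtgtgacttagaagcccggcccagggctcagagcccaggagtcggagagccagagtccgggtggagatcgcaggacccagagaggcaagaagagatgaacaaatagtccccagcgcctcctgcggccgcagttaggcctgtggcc

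The TAATTA palindrome lay 173 to 168 bases before the start of Prrx1 and 187 to 182 bases before that of Msx2. Of 32851 mouse promoter windows of the same length, 4.84% held it, against 2 of 27 windows of measured homeobox genes and 2 of 33 windows of homeobox genes under the floor, both of them windows of Hoxd11. TGATNNAT was in 7.68% of all windows, in 1 of the 27 (Hoxa2) and in 3 of the 33. CCAAT was in 33.8% of all windows, in 14 of the 27 and in 16 of the 33. GGGCGG was in 32.7%, 14 of 27 and 17 of 33, and TATAAA in 12.4%, 1 of 27 and 4 of 33. The Hoxd8 window was 44.4% G or C with 6 CpG pairs, and the Hoxd9 window 65.2% with 13, where the median window had 52.4% and 6. These are letter matches, with no measurement of binding.

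Which homeobox genes gave a signal was read against a floor of 31.7. This is the middle signal when all probe sets other than controls, named or not, are pooled over the 2 arrays. PP1 signals are given throughout after multiplication by 1.68, which made the 2% trimmed means of the arrays equal. Where a gene has several probe sets, the one brightest on average (log2) was chosen, and a gene counts as measured when that probe set is above the floor on at least 1 array. On this rule 33 of 79 homeobox genes (41.8%) were measured, 27 on both arrays and 6 on 1 array, and 46 were under the floor on both. Over all genes the share was 66.6%. Among 75 olfactory, vomeronasal and taste receptor genes, which bone cells should lack, 3 (4.00%) were measured, 2 of them on both arrays. A total of 17 homeobox genes reached 126.9, 4 times the floor, on at least 1 array. Probe sets differ in how well they bind, so a signal says whether a transcript was seen and not how much more of it there was than of another gene.

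Anterior Hox genes were measured more often than posterior ones. Of those with paralogue numbers 1 to 4, 6 of 10 were measured (60%). Of numbers 5 to 8 it was 3 of 9 (33.3%), and of numbers 9 to 13 it was 1 of 14 (7.14%). Each of these shares was under the 66.6% of all genes, and the last was near the 4.00% of receptor genes. With the floor at the 75th percentile of signals, 1, 1 and 0 genes of these groups were left. By cluster, 5 of 9 Hoxa genes, 3 of 9 Hoxb, 1 of 7 Hoxc and 1 of 8 Hoxd genes were measured. Each cluster was thus also under the share of all genes. The Hox genes reaching 4 times the floor were Hoxb2, Hoxb3 and Hoxd8.

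**Figure D1:**
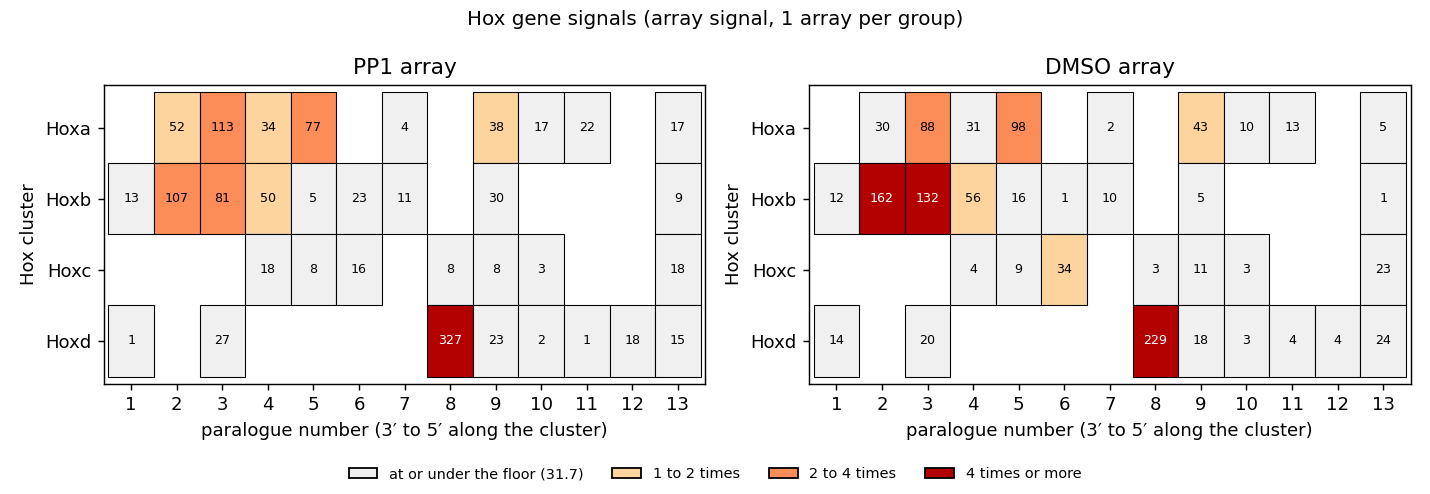
Signals of the Hox genes by cluster (rows) and paralogue number (columns), on the PP1 array (left, scaled) and the DMSO array (right), 1 array each. Numbers are signals, colours give the multiple of the floor of 31.7, and blank positions show no value; on both arrays the coloured cells lie mostly at paralogues 2 to 5, with Hoxd8, Hoxa9 and, on the DMSO array, Hoxc6 apart from them.

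In the Hoxb cluster, a run of 3 neighbouring genes was above the floor on both arrays. Hoxb2, which patterns the hindbrain and its crest, had a signal of 106.7 with PP1, against 162.2 with DMSO, a log2 ratio of -0.60 or 1.52-fold lower. Hoxb3 had 80.6 with PP1 and 131.7 with DMSO, a log2 ratio of -0.71 or 1.63-fold lower by its chosen probe set. Its other probe set, with 31.8 with PP1 and 39.6 with DMSO, gave -0.32. All 3 genes were thus lower on the PP1 array, Hoxb4 least, with 49.8 against 56.3 with DMSO and a log2 ratio of -0.18. Hoxb1, Hoxb5, Hoxb6, Hoxb7, Hoxb9 and Hoxb13 were under the floor on both arrays, with signals up to 29.5.

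In the Hoxa cluster the measured genes were Hoxa2 to Hoxa5 and Hoxa9, of which Hoxa2 and Hoxa4 passed the floor with PP1 only, and they had no shared direction. Hoxa2, which in the embryo specifies the second pharyngeal arch, had 52.1 with PP1 and was under the floor with DMSO (30.3), which puts it at least 1.64-fold higher. Hoxa3 had 112.7 with PP1 and 87.8 with DMSO (log2 ratio 0.36). Its other probe set above the floor, marked as shared between transcripts, gave -0.17. Hoxa4 lay at the floor, with 34.3 with PP1 against 31.3 with DMSO. Hoxa5 had 76.7 with PP1 and 98.4 with DMSO (-0.36), from a probe set marked as shared between transcripts. Its other probe set, without that mark, gave 0.27. The Hoxa genes therefore went both ways, and for Hoxa3 and Hoxa5 so did the probe sets of 1 gene.

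Hoxa9 was the 1 measured gene of the posterior group, with 37.7 with PP1 and 43.0 with DMSO. Its other probe set was under the floor on both arrays (10.3 with PP1 and 1.41 with DMSO). Hoxa9 is also known as a gene of blood progenitors. Of 7 markers fixed for those cells, 4 were above the floor (57.1%, against 66.6% of all genes), and all 4 were higher with PP1. These were Cd34 (266.7 with PP1 and 133.9 with DMSO), Gata2 (95.9 and 58.9), Ptprc (303.7 and 261.7) and Spi1 (103.8 and 101.0). Kit, Myb and Mpo were under the floor on both arrays. The summed signal over all 7 was 812 with PP1 and 609 with DMSO. The part of such cells in the Hoxa9 signal was not tested.

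Hoxd8, a gene of the central group, had 326.9 with PP1 and 228.5 with DMSO, a log2 ratio of 0.52. Its other probe set, marked as shared between transcripts, had 105.1 with PP1 and 132.6 with DMSO and gave -0.33. The direction of Hoxd8 thus depends on the probe set. Both probe sets were above the floor on both arrays. The next gene in the cluster, Hoxd9, had 23.0 with PP1 and 17.8 with DMSO, under the floor on both. Hoxd1, Hoxd3, Hoxd10, Hoxd11, Hoxd12 and Hoxd13 were under it as well, with signals up to 26.7. In the Hoxc cluster, Hoxc6 was measured with DMSO (34.2) and under the floor with PP1 (15.7), at least 1.08-fold lower. Another Hoxc6 probe set, marked as shared between transcripts, had 42.7 with DMSO and 8.92 with PP1, at least 1.35-fold lower. The other 6 Hoxc genes were under the floor on both arrays.

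Of 18 genes of the Msx, Dlx, Alx, Prrx and sine oculis families, known from skull and head development, 11 (61.1%) were measured, against 66.6% of all genes, and 6 reached 4 times the floor. Prrx1, a paired-type factor of limb and cranial mesenchyme needed for the skull, had 2770 with PP1 and 2057 with DMSO, a log2 ratio of 0.43. All 5 of its probe sets above the floor were higher with PP1, with log2 ratios from 0.09 to 0.64. Its relative Prrx2 had 927 with PP1 and 907 with DMSO (log2 ratio 0.03), which is hardly any difference.

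The Msx genes, which act downstream of BMP signals and set the growth of the skull vault, were lower with PP1 by their chosen probe sets. Msx1 had 147.8 with PP1 and 203.4 with DMSO (log2 ratio -0.46), from a probe set marked as shared between transcripts, and its other probe set was under the floor on both arrays. Msx2, whose dosage controls closure of the skull sutures and fontanelles, had 265.5 with PP1 and 296.4 with DMSO (-0.16). Its second probe set, above the floor with PP1 (39.8) and under it with DMSO (24.6), pointed up at 0.33. Among BMP signals, which are known to induce Msx genes, Bmp4 had 896 with PP1 and 1031 with DMSO (-0.20), while Bmp2 had 42.3 with PP1 and was under the floor with DMSO (24.3), at least 1.33-fold higher. Msx3, a neural tube gene, was under the floor.

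Of 6 Dlx genes, 4 were measured. Dlx5, which drives osteoblast differentiation, had 190.0 with PP1 and 217.7 with DMSO (log2 ratio -0.20), and Dlx6, its neighbour in the genome, lay at the floor with 35.4 with PP1 and 30.2 with DMSO. Dlx2, a gene of the pharyngeal arches, had 113.8 with PP1 and 124.1 with DMSO (-0.13). Dlx1, the partner of Dlx2, had 54.4 with PP1 and 42.7 with DMSO (0.35). The 4 genes thus split evenly in direction, with no ratio as large as 1.5-fold. Dlx3 and Dlx4 were under the floor.

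Six2, a factor of progenitor cells in kidney and craniofacial mesenchyme, had 451.1 with PP1 and 408.9 with DMSO (log2 ratio 0.14). Six5 had 119.8 with PP1 and 78.5 with DMSO, a log2 ratio of 0.61 or 1.52-fold higher, from 1 probe set. Six4 had 87.5 with PP1 and 92.1 with DMSO (-0.07). Its 3 probe sets above the floor ran from -0.50, in a probe set marked as shared between transcripts, to 0.42, so its direction was not fixed. Six3 and Six6, genes of the eye and forebrain, were under the floor. Alx1 and Alx4, both known from face and skull defects when lost, were also under the floor, with signals from 7.28 to 18.4, which does not show that their transcripts were absent.

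**Figure D2:**
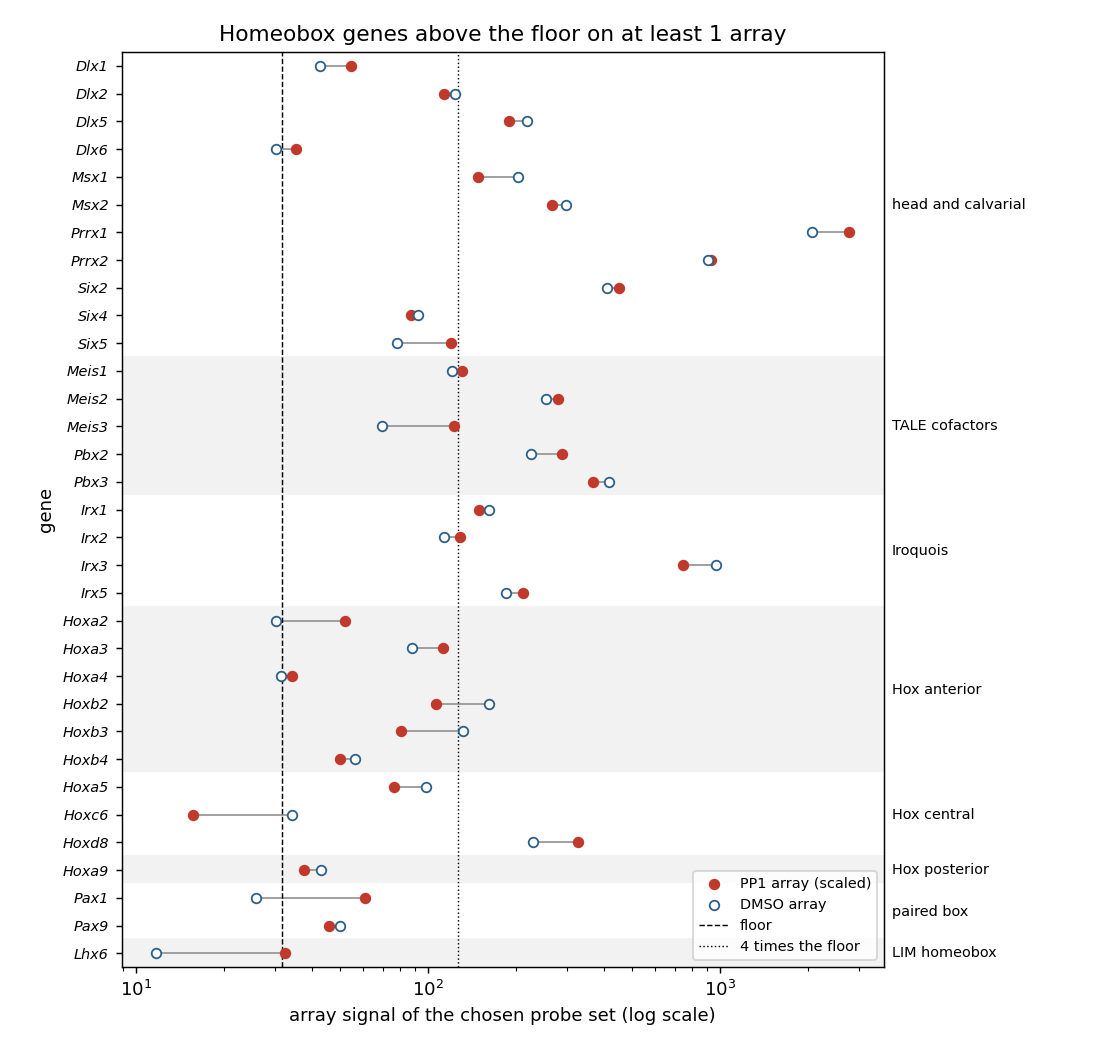
Signals of the 33 measured homeobox genes on the PP1 array (filled, scaled) and the DMSO array (open), on a log axis, grouped by role, 1 array each. The dashed line is the floor of 31.7 and the dotted line is 4 times the floor; the 2 points of most genes lie close together, and Prrx1, Prrx2, Irx3 and Six2 lie well to the right of both lines.

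The cofactors of Hox proteins were mostly measured, 5 of 6 genes. Meis3 had 122.6 with PP1 and 69.3 with DMSO, a log2 ratio of 0.82 or 1.77-fold higher, from 1 probe set. Meis2 had 277.8 with PP1 and 252.6 with DMSO (0.14), from a probe set marked as shared between transcripts. Its other 3 probe sets were higher too, up to 0.78 in another such probe set that was under the floor with DMSO. Meis1 had 130.3 with PP1 and 120.5 with DMSO (0.11). All 3 Meis genes were higher with PP1 by every probe set above the floor, though Meis1 by little.

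Pbx2 had 288.5 with PP1 and 225.8 with DMSO (log2 ratio 0.35), with its 3 probe sets from 0.35 to 0.87. Pbx3 had 366.7 with PP1 and 417.9 with DMSO (-0.19) from a probe set marked as shared between transcripts, against 0.04 by its other probe set. The 2 Pbx genes therefore lay on opposite sides of 0. Pbx4 was under the floor.

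Of the Iroquois genes, which pattern limb, heart and nervous system, 4 of 6 were measured and all 4 reached 4 times the floor, each by 1 probe set. Irx3 had 747 with PP1 and 965 with DMSO (log2 ratio -0.37). Irx5, its neighbour in the same gene cluster, had 210.6 with PP1 and 185.3 with DMSO (0.18). Irx1 had 149.4 with PP1 and 161.3 with DMSO (-0.11), and Irx2 had 128.8 with PP1 and 113.3 with DMSO (0.18). No Iroquois gene differed by 1.5-fold, and Irx4 and Irx6 were under the floor.

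LIM homeobox and paired box genes, many of them regulators of neurons, muscle, kidney or immune cells, were mostly not seen. Of 8 LIM genes only Lhx6 was measured, with 32.3 with PP1 against 11.7 with DMSO, just past the floor on 1 array. Of 8 Pax genes, Pax9 had 45.8 with PP1 and 49.9 with DMSO (log2 ratio -0.12), with another probe set at 0.27. Pax1, a sclerotome gene, had 60.8 with PP1 and 25.8 with DMSO, under the floor, which puts it at least 1.92-fold higher from a dim signal. Pax3 and Pax7, markers of muscle precursors, were under the floor, with signals up to 29.6 and 16.7. Of 8 muscle markers, 7 were above the floor on at least 1 array (87.5%, against 66.6% of all genes). The summed signal over all 8 was 1124 with PP1 and 971 with DMSO. The median log2 ratio of the 7 was 0.60, with 6 higher with PP1, where 6175 of 12111 measured genes were above 0. Des (2.69-fold) and Myog (at least 2.58-fold, under the floor with DMSO) were at least 2-fold higher, against 2.97% of all measured genes. Acta1, the brightest of the markers, was lower (426.2 with PP1 and 521.0 with DMSO), and Myf5 was under the floor on both arrays. The part of muscle cells in the Pax signals was not tested.

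Between the arrays, with signals under the floor set to it, 0 of 33 homeobox genes were at least 2-fold higher and 0 at least 2-fold lower. The count is also 0 over the 27 genes above the floor on both arrays. The other 6 ratios are lower bounds, and with no floor Lhx6 (log2 ratio 1.46), Pax1 (1.23) and Hoxc6 (-1.12) pass 2-fold on dim signals. Over all 12111 measured genes 2.97% were at least 2-fold higher and 1.55% at least 2-fold lower, so a count of 0 among 33 is close to the background. At 1.5-fold, 4 were higher (Hoxa2, Meis3, Pax1 and Six5) and 2 lower (Hoxb2 and Hoxb3), against 10.6% and 7.37% of all measured genes. Hoxa2 and Pax1 rest on a DMSO signal under the floor. With signals under the floor set to it, the ratios of the remaining 27 genes (81.8%) came out within 1.5-fold, against 82.0% of all measured genes. For Dlx6, Hoxa4, Hoxc6 and Lhx6 among them that ratio is only a lower bound on the difference. Of the 27 genes above the floor on both arrays, 23 lay within 1.5-fold.

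The median log2 ratio was 0.03 over the 33 homeobox genes, with 18 above 0 and 15 below, and 0.01 over all measured genes. It was -0.14 over 10 Hox genes, with 4 above 0 and 6 below, and 0.11 over the 23 others, with 14 above 0 and 9 below. The SD of the log2 ratio was 0.39 between the 33 genes and 0.48 between all measured genes. Probe sets of the same gene, both read above the floor, differed with an SD of 0.41 over 4745 genes and 0.34 over the 10 homeobox genes that had such probe sets. Most homeobox ratios are thus no larger than the disagreement between probe sets of 1 gene. Several probe sets passed the floor, on 1 array or both, for 13 homeobox genes: in 6 they were all on the same side of 0 and in 7 on both sides.

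**Figure D3:**
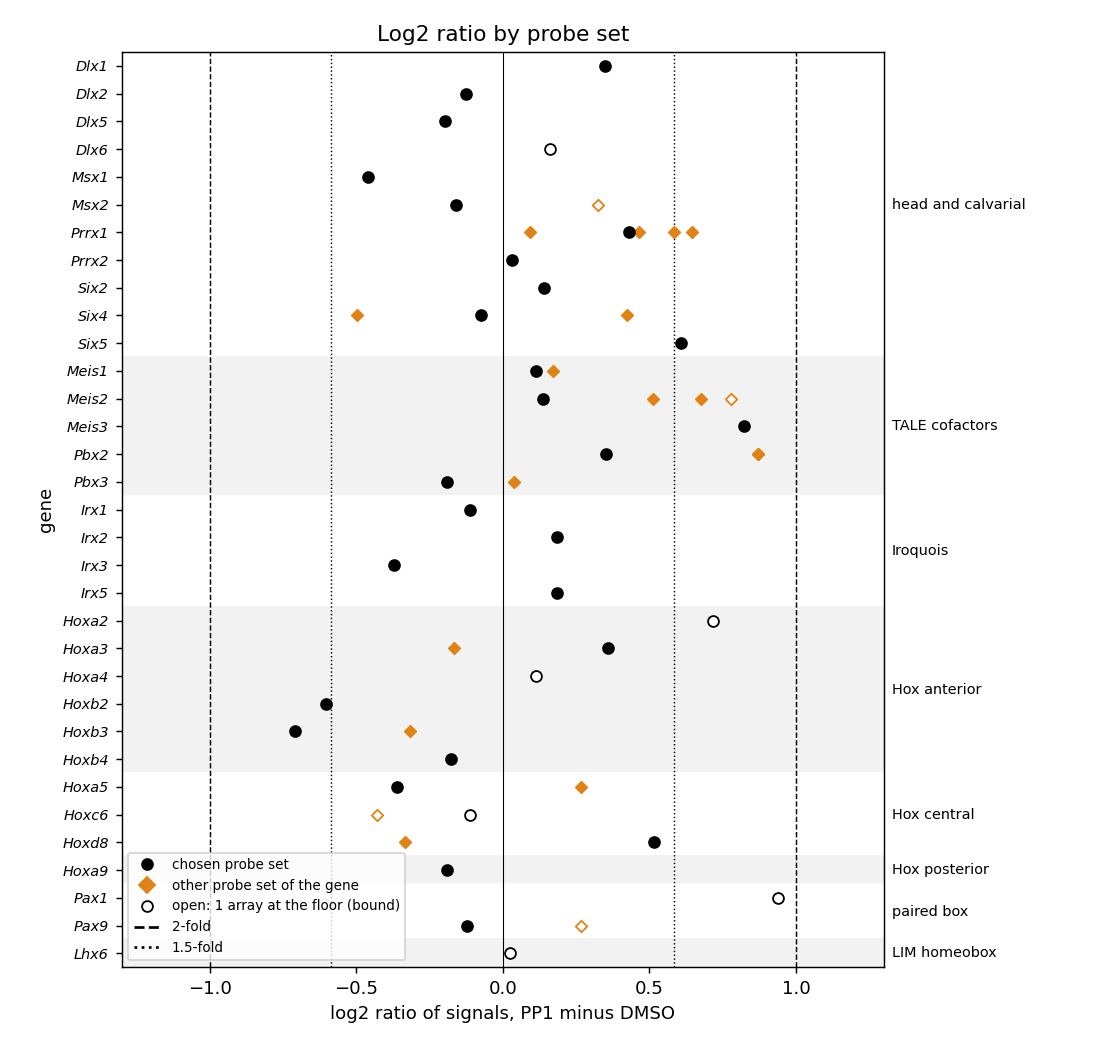
Log2 ratio of signals, PP1 minus DMSO, for every probe set above the floor on at least 1 array of the 33 measured homeobox genes. Circles are the chosen probe sets, diamonds the others, open symbols are bounds with 1 array at the floor, dotted lines mark 1.5-fold and dashed lines 2-fold; no point passes a dashed line, with signals under the floor set to it.

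**Figure D4:**
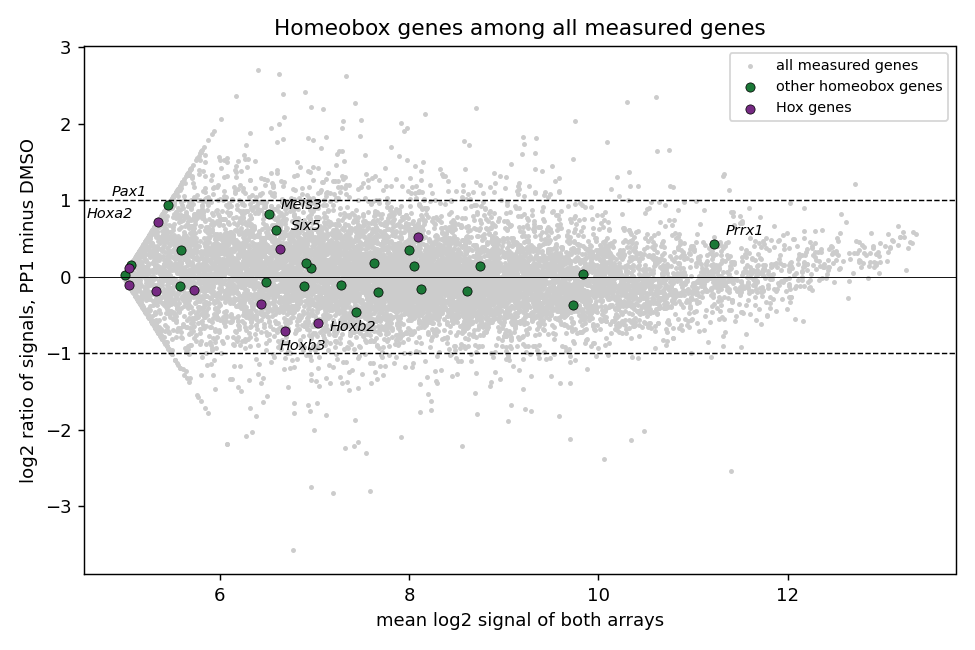
Log2 ratio, PP1 minus DMSO, against the mean log2 signal of both arrays, for all 12111 measured genes (grey), the 10 measured Hox genes (purple) and the 23 other measured homeobox genes (green). With signals under the floor set to it, all 33 homeobox genes lie between the dashed 2-fold lines, and the named ones are those past 1.5-fold and Prrx1.

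All directions are relative to the bulk of genes. The unscaled PP1 array is dimmer, and with no scaling 5 homeobox genes were at least 2-fold lower (Hoxa5, Hoxb2, Hoxb3, Irx3 and Msx1), while the median of all measured genes stood at -0.70.

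Other genes of head and body position were set beside the homeobox genes from lists of names. Over all genes, 66.6% were measured. Of those 12111 genes, 6175 had a log2 ratio above 0, 2.97% were at least 2-fold higher and 1.55% at least 2-fold lower. Of 33 cranial mesenchyme factors with a probe set, 26 were measured, with a median log2 ratio of 0.24, 20 above 0, 2 at least 2-fold higher and 0 at least 2-fold lower. Twist1, whose loss of 1 copy fuses the coronal suture in mice, had 1450 with PP1 and 499 with DMSO, a log2 ratio of 1.54. Osr1, a zinc finger factor of mesenchymal progenitors, had 269.9 with PP1 and 58.0 with DMSO (2.22). En1, known from calvarial and limb patterning, had 84.0 with PP1 and 42.8 with DMSO (0.97), and Tcf7l2, a Wnt effector, had 216.7 with PP1 and 124.9 with DMSO (0.80). The first 3 of these rest on 1 probe set each. Of 16 limb and trunk factors, 6 were measured (median 0.27, 5 above 0, 0 past 2-fold), namely Meox2, Tbx2, Tcf15, Shox2, Tbx3 and Gata6. Meox2, a somite and limb muscle gene, had 328.3 with PP1 and 215.6 with DMSO (0.61), and Shox2, a limb gene, had 158.1 with PP1 and 140.1 with DMSO (0.17). The other 10, the limb genes Tbx4, Tbx5 and Pitx1 and the hindgut genes Cdx1, Cdx2 and Cdx4 among them, were under the floor on both arrays.

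Regulators that keep Hox genes silent or active were measured throughout, against 66.6% of all genes. All 22 Polycomb and trithorax genes with a probe set were above the floor on at least 1 array, with a median log2 ratio of -0.01, 10 above 0 and 12 below, and 0 past 2-fold. The largest ratios were those of Phc1, a Polycomb subunit (0.83, 1 probe set), and Kdm6b, a demethylase that removes the Polycomb mark. Kdm6b had 186.8 with PP1 and 317.3 with DMSO (-0.76), and its 3 probe sets ran from -0.76 to 0.33.

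Retinoic acid, which sets the anterior limits of Hox expression in the embryo, was represented by 13 measured genes of 16, with a median log2 ratio of 0.15, 8 above 0, 2 at least 2-fold higher and 1 at least 2-fold lower. Cyp26b1, which degrades retinoic acid, had 115.7 with PP1 and 44.1 with DMSO (1.39). Aldh1a3, which makes it, was under the floor with PP1 (23.8) and had 94.3 with DMSO, at least 2.97-fold lower, and its other probe set gave -0.94. The binding protein Crabp1 had 928 with PP1 and 408 with DMSO (1.19), and Aldh1a1, another synthesizing enzyme, had 382.1 with PP1 and 206.4 with DMSO (0.89). The members of this list thus went both ways. The shares over all genes were 66.6% measured and, of those, 2.97% at least 2-fold higher and 1.55% at least 2-fold lower.

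Of 26 genes for suture signals and their partners, 21 were measured, against 66.6% of all genes. Their median log2 ratio was 0.13, with 12 above 0 and 0 past 2-fold. Eya1, a partner of Six2 and its relatives, had 395.2 with PP1 and 213.0 with DMSO (log2 ratio 0.89, or 0.57 by its other probe set), and Gas1, a hedgehog co-receptor, had 3631 with PP1 and 2022 with DMSO (0.84, or 1.24 by its other probe set). Efna4, an ephrin of the coronal suture, had 71.0 with PP1 and 40.3 with DMSO (0.82). The Notch ligand Jag1 had 697 with PP1 and 1152 with DMSO (-0.72), with its 3 probe sets from -0.72 to 0.93.

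**Figure D5:**
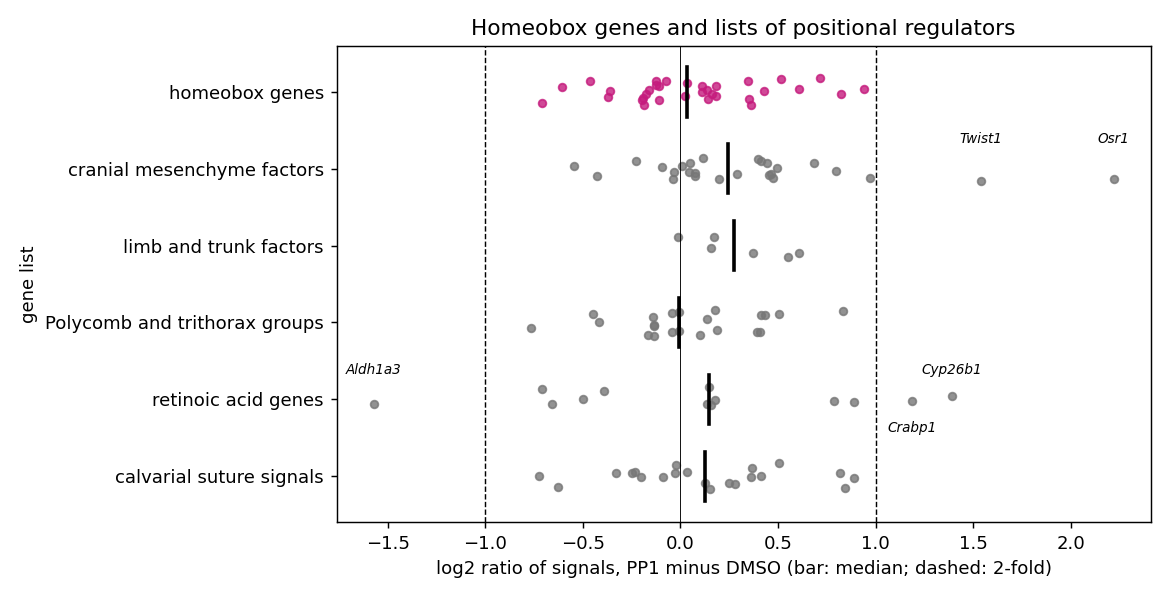
Log2 ratios, PP1 minus DMSO, of the measured homeobox genes (top row) and of the measured genes of 5 lists of positional regulators; points are genes, bars are medians, and dashed lines mark 2-fold. With signals under the floor set to it, no homeobox gene passes the dashed lines, and Twist1, Osr1, Cyp26b1, Crabp1 and Aldh1a3 do.

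Markers of the cell types the cultures could hold were read once. Over all genes 66.6% were above the floor on at least 1 array, and 6175 of those 12111 were higher with PP1. The shares above the floor were 90% for macrophage, 85.7% for cartilage, 83.3% for epithelial and 75% for osteoblast markers. They were 66.7% for neural, 62.5% for meninges and dura and 50% for endothelial markers. A count of this kind does not by itself show that a cell type was there. Of 8 osteoblast markers with a probe set, 6 were above the floor, 3 higher and 3 lower with PP1, with a summed signal of 21670 with PP1 and 16054 with DMSO that is mostly Col1a1 and Col1a2. Ibsp, a bone matrix protein, had 37.7 with PP1 and 159.1 with DMSO, 4.22-fold lower. The osteocyte genes Dmp1 and Phex were under the floor, and Runx2, Spp1, Bglap and Bglap2 were not analysed here. Of 10 macrophage markers 9 were above the floor, with a summed signal of 16435 with PP1 and 13804 with DMSO. Of 7 cartilage markers 6 were, with a summed signal of 5272 with PP1 and 6085 with DMSO. These sums are mostly Lyz1 and Lyz2, and Col2a1. Of the 9 macrophage markers 6 were higher and 3 lower with PP1, from Mrc1 (2.16-fold higher) to C1qa (1.47-fold lower). Of the 6 cartilage markers 1 was higher and 5 lower, Acan most (2.27-fold). Of 6 endothelial markers, 3 were above the floor on at least 1 array, 2 higher and 1 lower with PP1. The summed signal over all 6 was 178 with PP1 and 119 with DMSO. The highest signal was 55.2, for Tek with PP1 (32.3 with DMSO), and Pecam1 was under the floor on both arrays. Of 8 markers of meninges and dura, 5 were above the floor, with a summed signal of 1666 with PP1 and 2198 with DMSO. Of these 5, Foxd1, Crabp2 and Gjb2 were lower and Aldh1a2 and Ptgds higher with PP1, Ptgds by 2.95-fold (109.2 with PP1 and 37.0 with DMSO). Of 6 neural markers with a probe set, 4 were above the floor, and these 4 were higher with PP1. Their list had a summed signal of 1100 with PP1 and 863 with DMSO. Sox10, also among the cranial mesenchyme factors above, had 577.2 with PP1 and 415.6 with DMSO. Nes had 253.7 with PP1 and 217.7 with DMSO, and Map2 165.2 and 160.6. Gfap passed the floor with PP1 only (60.0, and 31.1 with DMSO), and Tubb3 and Elavl3 were under it on both arrays. Of 6 epithelial markers, 5 were above the floor, 2 higher and 3 lower with PP1. The summed signal of that list was 309 with PP1 and 342 with DMSO. The part of these cells in the homeobox signals was not tested. The 3′ over 5′ signals of the control probe sets reflect RNA integrity. On the log2 scale their PP1 minus DMSO difference was -0.51 for Gapdh, -0.34 for pyruvate carboxylase and 0.14 for Actb, and its part in the homeobox values was not tested.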

How the data were processed

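Expression was read on 2 Affymetrix mouse arrays, 1 for PP1 and 1 for DMSO. The deposited values are linear signal intensities per probe set made with MAS5, per the submitters' processing notes; neither a version nor a target intensity is recorded. Of 45101 probe sets, 64 were controls. GEO's platform annotation gave gene names, and RefSeq (GRCm38.p6) newer symbols for the same gene identifiers: 34945 had 1 gene (34741 matched by identifier), 932 several and 9160 none here.

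The PP1 array was multiplied by 1.68 to equal 2% trimmed means (as deposited, 94.1 for PP1 and 158.1 for DMSO). Signals below 31.7 were set to that floor before log2, so where 1 array is at the floor the ratio is a bound. Probe sets were chosen before the floor was set. Some genes of these families are not reported here, so counts cover the genes given. The work used Python 3.11.15, and the steps were tested on simulated data.

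There are no replicates, so no p-value is given, and the number of arrays limits the precision. Members, lists and alternatives were chosen with earlier results of these data known. Text names every measured member, and at most 4 genes per list by size of log2 ratio, beside a few named for their role after their values were seen (Bmp2 and Bmp4; limb and hindgut genes; cell type markers). Promoters are RefSeq's (GRCm38.p6), matched by symbol for 52 of 79 genes, 24 of them measured. The alternatives were other scalings, floors, probe set rules and fold thresholds.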

Additional observations from a re-analysis of the deposited data

Results flagged for a closer look

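Among probe sets outside the choice of members, those naming a homeobox gene together with another gene, or its opposite-strand transcript, were looked at separately. Of 12 opposite-strand probe sets 2 were above the floor on at least 1 array, and of 3 naming several genes 1 was. By its definition the floor has as many of all pooled signals above it as below. Hoxb5os, above the floor on both arrays, had 34.3 with PP1 and 39.7 with DMSO (log2 ratio -0.21). A Hoxd3os1 probe set, for a transcript opposite to Hoxd3, stood out because it was above the floor with PP1 (59.0) and under it with DMSO (28.1), while the other Hoxd3os1 probe set was under the floor on both arrays. A probe set that names both Hoxd4 and Hoxd3 had 43.3 with PP1 and was under the floor with DMSO (30.4). Both signals are dim and each comes from 1 array per condition.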

How the results depend on the processing

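Counts and medians over the homeobox genes were recomputed under each alternative. Of the 33 measured genes, 24 stayed on the same side of the median of all measured genes in every scaling, floor and probe set rule run for them, and 9 (Hoxa5, Hoxb2, Hoxc6, Irx1, Lhx6, Msx2, Pax9, Pbx3 and Prrx2) did not. Hoxa5 moved to 0.24 above that median without shared probe sets, and Hoxb2 to 0.03 above it with a floor at the 75th percentile, where its PP1 signal is at the floor. As deposited, 5 homeobox genes were at least 2-fold lower and their median log2 ratio was -0.61, where 23.4% of all measured genes were 2-fold lower. Scaled to the bacterial hybridization controls, 9 were at least 2-fold lower and the median was -0.68, where 30.6% of all were, with a median of all genes of -0.79. With no floor, 2 were at least 2-fold higher (Lhx6 and Pax1) and 1 lower (Hoxc6), and the median was 0.11. All 3 of those were under the floor on 1 array. The floor at the 75th percentile left 14 measured homeobox genes, and the floor at the 95th percentile of receptor probe sets put 1 gene, Pax1, past 2-fold higher. Without probe sets marked as shared the median was 0.11, and Msx1 was no longer measured. A threshold of 1.5-fold gave 4 higher and 2 lower genes. Centring on the median, loess, the median over probe sets and a 3-fold threshold left both counts at 0. No paired analysis was possible because each condition has 1 array. Dim signals near the floor limit what can be said of Hoxa2, Hoxa4, Hoxa9, Hoxc6, Dlx6, Lhx6 and Pax1.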
